A study of Mus musculus with 21 samples.

Results

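The erythropoietin receptor gene and 7 genes of heme and iron handling were followed through macrophages sorted from mouse kidneys. The 8 members were taken by name from the table of estimated counts, in which 34236 gene names were counted. They were Epor, Hmox1, Slc40a1, Cd163, Trf, Tfrc, Fth1 and Slc11a1, and each occupied 1 line of the table. The study asked how 3 macrophage populations of the kidney differ and how each responds to renal artery stenosis (RAS), a narrowing of the artery that supplies the kidney. RNA was sequenced in 21 libraries from male C57BL/6J mice, labelled as 24 weeks old with a flow sort time of 5 hours. The populations were kidney resident macrophages (KRM; Sham, n = 4, and RAS, n = 3), CD11cHI macrophages (Sham, n = 3, and RAS, n = 4) and CD11cLO macrophages (Sham, n = 3, and RAS, n = 4). The stenosis came from a cuff set on the artery of the right kidney, and Sham surgery exposed that artery without a cuff. All groups shared the same strain, digestion and gating for F4/80 and CD64, and the gate on lineage markers was set against T, B and NK cells, erythrocytes and granulocytes. The labels do not say whether each library came from its own mouse, so p-values measure the spread between these libraries. The study's text counts fewer RAS libraries of each CD11c population than the tables hold, and all of them were used. CD11cHI RAS replicates 3 and 4 were closer to each other (mean chi-square of 5.13 per gene) than the other pairs of that group (94.3 to 128), and differed by more than counting error, for which the value would be near 1. In KRM RAS, replicates 2 and 3 were likewise closer to each other (10.1) than to replicate 1 (136 and 107).

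Macrophages that clear old red cells take up hemoglobin and heme, break heme down, and then either store the freed iron or return it to the blood. Cd163 encodes the scavenger receptor for hemoglobin bound to haptoglobin, Hmox1 the inducible heme oxygenase that opens the heme ring, Slc11a1 (Nramp1) an iron exporter of the phagosome, Fth1 the ferritin heavy chain that stores iron, and Slc40a1 ferroportin, the iron exporter of the cell surface. Trf encodes transferrin, the iron carrier of plasma, Tfrc the transferrin receptor that brings it into cells, and Epor the receptor for erythropoietin, the hormone that the kidney releases to drive red cell production.

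Totals ranged from 6891142 to 18592381 counts a library. Values are counts per 1000000 counts of a library (CPM), scaled by edgeR's TMM factors, which lay between 0.836 and 1.157. The macrophage genes Emr1 (F4/80), Fcgr1 (CD64) and Csf1r were counted in every library, and the summed level of 11 macrophage markers was 3790 to 20116 CPM. Several libraries stood apart. The summed level of 12 kidney tubule markers was 14632 CPM in CD11cHI Sham replicate 3, 5281 CPM in CD11cLO Sham replicate 3, 6565 CPM in KRM RAS replicate 2 and 4864 CPM in KRM RAS replicate 3, against 61.8 to 2246 CPM in the others. CD11cHI RAS replicate 1 had a macrophage marker sum of 9909 CPM, more than the 3790 to 4783 CPM of its group, and CD11cLO RAS replicate 3 had 13805 CPM against 6707 to 7728 CPM. The column of KRM RAS replicate 1 differed between the deposited tables, with a correlation of 0.0910 across genes against 0.926 or more for every other library. In the second table it was most like the column of KRM Sham replicate 3 (0.667), and which table holds that library is not known. All values here use the count table. The sum of 9 of 12 erythroid markers, mostly the hemoglobin genes Hba-a1 and Hba-a2, was 2.57 to 853 CPM, and Rhag was at 0 in all 21 libraries. The hemoglobin genes Hbb-bs and Hbb-bt and the gene Ahsp were not found under those names, so the sum leaves them out. The sum was 853, 458 and 392 CPM in KRM RAS and 535 CPM in CD11cHI Sham replicate 3, and at most 334 CPM in the others.

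Iron itself acts on several of these transcripts through the iron-responsive element, a hairpin in the untranslated region that binds iron regulatory proteins. The elements are shown because the control that iron exerts through them, on translation of ferritin and ferroportin and on the stability of the transferrin receptor transcript, comes after transcription. A C, 5 bases, the loop CAGTG with 1 further base, and 5 bases that pair with the first 5 were searched on the transcript strand alone, in coding transcripts of GENCODE vM21 (GRCm38, the same build as mm10). It matched in 3 of the 8 members, as printed here in transcript direction with the loop in capitals. The Fth1 element lies in the 5′ untranslated region at chr19:9982732-9982761 on the plus strand, and the Slc40a1 element in the 5′ untranslated region at chr1:45925464-45925493 on the minus strand. The 4 Tfrc elements follow each other in the 3′ untranslated region on the plus strand, at chr16:32631219-32631248, chr16:32631598-32631627, chr16:32631663-32631692 and chr16:32631710-32631739.
Fth1: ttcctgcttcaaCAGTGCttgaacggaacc
Slc40a1: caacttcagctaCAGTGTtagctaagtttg
Tfrc 1: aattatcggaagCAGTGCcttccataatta
Tfrc 2: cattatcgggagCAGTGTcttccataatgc
Tfrc 3: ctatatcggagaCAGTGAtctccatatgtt
Tfrc 4: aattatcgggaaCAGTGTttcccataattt
The same search matched in the 5′ untranslated region of 31 of 21877 coding genes (0.142%) and in the 3′ untranslated region of 129 (0.590%). A match describes these letters only.

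The levels of the 8 genes spanned a wide range. Per kilobase of the longest coding transcript, the mean level in KRM Sham was 3812 CPM for Fth1, 573 CPM for Trf, 286 CPM for Slc11a1 and 110 CPM for Hmox1. It was 24.7 CPM per kilobase for Slc40a1, 12.6 for Epor, 1.63 for Tfrc and 1.23 for Cd163. Ferritin heavy chain was thus the most abundant member per length and the hemoglobin receptor the least abundant in KRM. In CD11cLO Sham the mean per kilobase was 19.9 CPM for Cd163 and 0.940 CPM for Epor, so Cd163 lay above Epor there and below it in KRM Sham. Between the highest and lowest group means, Cd163 differed 16.1-fold, Epor 13.4-fold, Slc40a1 7.07-fold, Slc11a1 3.59-fold, Tfrc 3.29-fold, Hmox1 2.42-fold, Trf 2.02-fold and Fth1 1.80-fold.

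**Figure D1:**
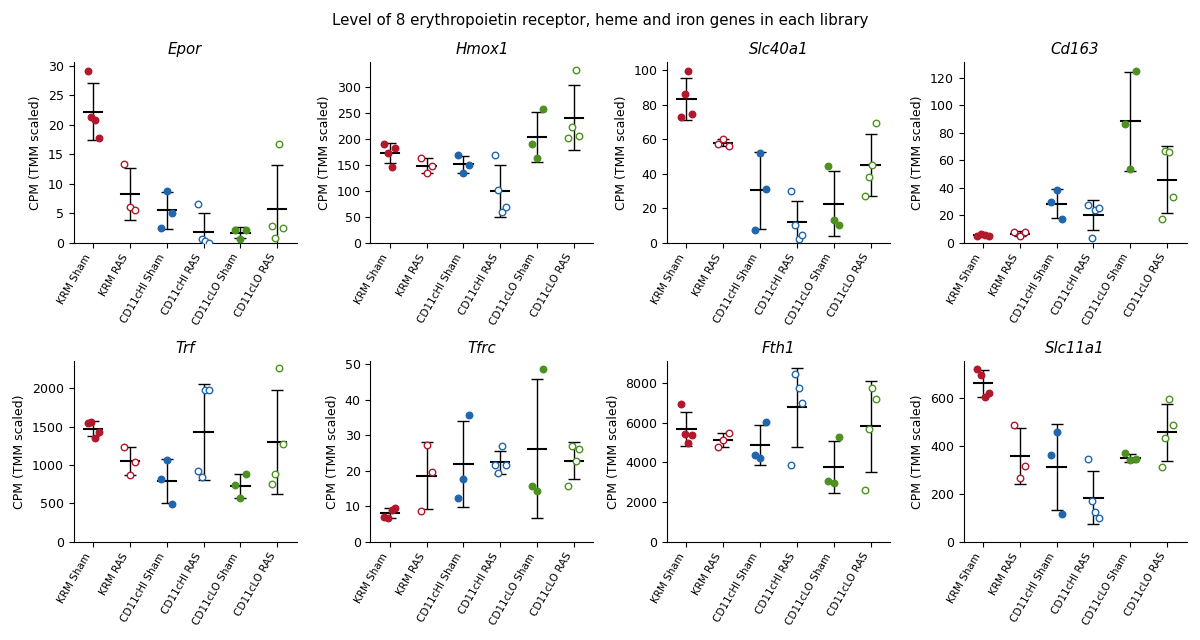
Level of each of the 8 genes (CPM, TMM scaled, linear axes from 0) by group; points are libraries (filled Sham, open RAS), the bar is the mean and the whiskers ± 1 SD (n = 3 or 4). The 4 KRM Sham libraries lie above every other library for Epor, Slc40a1 and Slc11a1, while the KRM libraries lie lowest for Cd163, apart from 1 CD11cHI RAS library at 3.49 CPM.

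In Sham kidneys KRM carried more Epor and less Cd163 than either other population, and against CD11cLO macrophages they also carried more Slc40a1, Trf and Slc11a1 and less Tfrc. Against CD11cHI macrophages 2 of the 8 members passed edgeR's quasi-likelihood test at an adjusted p of 0.05 (1 higher, 1 lower), beside 5.13% of the 12380 genes tested (1.00% higher, 4.13% lower). A block for the replicate number was also fitted, which the libraries' deviations allowed as a pairing. With the block 0 of the 8 passed by edgeR, beside 0.719% of all genes. DESeq2, fitted without the block, called 4, beside 14.6%. The groups did not overlap for 6 members, beside 24.5% of all genes, and 6 members had an unadjusted p below 0.05, a share that was also 24.5% over all genes. Against CD11cLO macrophages 6 of the 8 passed (4 higher, 2 lower), beside 41.9% of 12365 genes (19.5% higher, 22.4% lower), and 6 passed with the block, beside 34.5%. In that comparison 7 members had an unadjusted p below 0.05, beside 49.9% of all genes, and DESeq2 called 7, beside 45.5%. The median log2 fold change of the 8 was 0.51 against CD11cHI and 0.74 against CD11cLO macrophages, where the medians of all genes were -0.07 and -0.04. Between CD11cHI and CD11cLO macrophages of Sham kidneys 0 of the 8 passed by edgeR, beside 1.52% of 12105 genes, with 2 at an unadjusted p below 0.05 (17.7% of all genes) and 1 called by DESeq2 (10% of all genes). The summed macrophage markers were at 16949.6 to 20116 CPM in KRM Sham, 3848 to 11914 CPM in CD11cHI Sham and 5703 to 6493 CPM in CD11cLO Sham, and the sum of 7 classical monocyte markers was at 534 to 851 CPM, 368 to 2425 CPM and 4195 to 13214 CPM. The erythroid sum was 101 to 208, 72.2 to 535 and 2.57 to 85.7 CPM in KRM, CD11cHI and CD11cLO Sham. The sum of 4 B cell markers was 84.7 to 122, 16.7 to 62.5 and 12.977 to 16.3 CPM in the same order. KRM Sham thus lay above CD11cLO Sham in both of these sums, and above CD11cHI Sham in the B cell sum alone. The part of these marker sums in the differences between populations was not tested. In bulk samples, fewer cells of a type and less RNA per cell cannot be told apart.

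**Figure D2:**
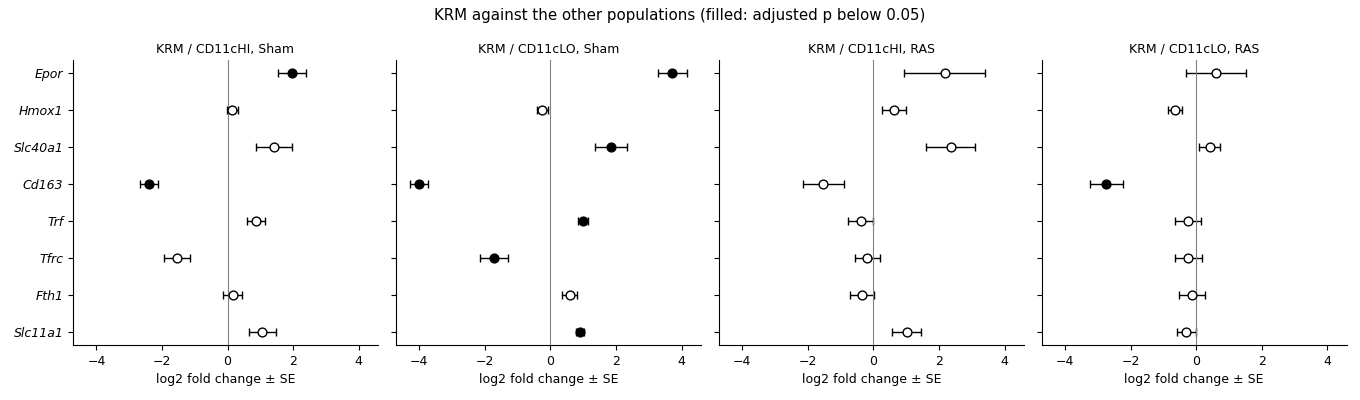
Log2 fold change with its SE (horizontal axis) of each member in KRM against CD11cHI and CD11cLO macrophages, in Sham and in RAS kidneys; filled points have an adjusted p below 0.05 by edgeR. In Sham, Epor lies to the right (1.98 and 3.71) and Cd163 to the left (-2.41 and -4.02) of 0, and in RAS only Cd163 against CD11cLO macrophages is filled.

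Epor (chr9:21958897-21963506, minus strand) was at 29.0, 21.3, 20.8 and 17.7 CPM in KRM Sham. It was at 2.50, 8.82 and 5.03 CPM in CD11cHI Sham and at 2.17, 0.580 and 2.21 CPM in CD11cLO Sham. Every KRM Sham library thus lay above every library of the other populations. The log2 fold change of KRM against CD11cLO macrophages was 3.71 (SE 0.446, adjusted p = 0.000354, edgeR), and the highest adjusted p among all alternatives was 0.0301, in 1 fit over all 6 groups. Against CD11cHI macrophages the call rested on each of several libraries: its adjusted p of 0.0444 became 0.0837 without CD11cHI Sham replicate 1, between 0.102 and 0.121 without any 1 of the KRM Sham libraries, 0.145 with the replicate block and 0.263 in 1 fit over all 6 groups, while DESeq2 gave 0.000277. Epor levels in RAS kidneys were 13.4, 6.00 and 5.50 CPM in KRM. They were 6.47, 0.635, 0.355 and 0 CPM in CD11cHI macrophages, where a count of 0 allows up to 0.364 CPM for counting error alone, and 2.78, 0.836, 16.7 and 2.56 CPM in CD11cLO macrophages. The 1 high library of each of these groups was the same that stood apart in its macrophage marker sum, CD11cHI RAS replicate 1 and CD11cLO RAS replicate 3. These libraries also had the highest erythroid sums of their groups, 334 CPM against 10.7 to 45.4 CPM and 308 CPM against 43.3 to 78.8 CPM. The part of either sum in the Epor values was not tested. After RAS the difference between KRM and CD11cHI macrophages was 2.17 on the log2 scale (SE 1.23, adjusted p = 0.273), and without CD11cHI RAS replicate 1 it was 4.74 (adjusted p = 0.0219). Ordered by mean, KRM Sham (22.2 CPM) was followed by KRM RAS (8.29), CD11cLO RAS (5.73), CD11cHI Sham (5.45), CD11cHI RAS (1.87) and CD11cLO Sham (1.66). From KRM RAS downward each group overlapped the next.

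Cd163 (chr6:124304656-124330527, plus strand), the hemoglobin and haptoglobin receptor, had the reverse order in the 3 Sham groups. It was at 5.18, 6.46, 5.49 and 4.81 CPM in KRM Sham. The levels were 29.7, 38.3 and 17.3 CPM in CD11cHI Sham and 86.2, 53.5 and 125 CPM in CD11cLO Sham. The 3 Sham groups did not overlap. KRM were lower than CD11cLO macrophages by -4.02 on the log2 scale (SE 0.275, adjusted p = 1.92e-05) and lower than CD11cHI macrophages by -2.41 (SE 0.275, adjusted p = 0.00623, or 0.0605 with the replicate block). CD11cHI macrophages differed from CD11cLO macrophages by -1.58 (SE 0.397, adjusted p = 0.116). In RAS kidneys Cd163 was at 7.47, 4.87 and 7.52 CPM in KRM, at 27.7, 3.49, 23.8 and 25.2 CPM in CD11cHI macrophages and at 17.3, 66.7, 65.8 and 33.4 CPM in CD11cLO macrophages. KRM stayed below all CD11cLO libraries, and 1 CD11cHI library, replicate 2, lay under the KRM range. The KRM to CD11cLO difference in RAS was -2.74 (SE 0.512, adjusted p = 0.0301), the single member called in that comparison, beside 9.17% of 13179 genes called and 5.89% called lower. It kept an adjusted p below 0.05 with the block (0.0484). In that comparison 2 members had an unadjusted p below 0.05, beside 32.9% of all genes, and DESeq2 called 2, beside 24.4%. It lost its call without KRM RAS replicate 2 (0.133) or replicate 3 (0.121), the libraries high in tubule markers, and without CD11cLO RAS replicate 2 (0.0842) or replicate 4 (0.0747).

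Hmox1 (chr8:75093621-75100589, plus strand), which degrades the heme that such uptake delivers, varied little between Sham groups. It was at 146 to 191 CPM in KRM, 135 to 168 CPM in CD11cHI macrophages and 162 to 256 CPM in CD11cLO macrophages, and all 3 ranges overlapped. In RAS kidneys it was at 169, 101, 59.5 and 67.9 CPM in CD11cHI macrophages and at 202, 223, 333 and 206 CPM in CD11cLO macrophages. No CD11cHI library reached the lowest CD11cLO library. The log2 difference was -1.28 (SE 0.347, adjusted p = 0.0513), just above the threshold. Without CD11cHI RAS replicate 1 it was -1.66 (adjusted p = 0.00651). KRM RAS, at 163, 133 and 148 CPM, differed from CD11cLO RAS by -0.65 (SE 0.208, adjusted p = 0.0815), again without overlap.

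Slc40a1 (chr1:45908068-45926523, minus strand), the iron exporter, was at 72.7, 86.2, 99.6 and 74.7 CPM in KRM Sham. It was at 7.60, 52.2 and 31.2 CPM in CD11cHI Sham and at 44.3, 12.99 and 10.5 CPM in CD11cLO Sham. KRM lay above both other groups, which spread widely. The log2 fold change was 1.85 against CD11cLO macrophages (SE 0.486, adjusted p = 0.0163; 0.0603 without CD11cLO Sham replicate 2 and 0.0647 in 1 fit over all 6 groups) and 1.41 against CD11cHI macrophages (SE 0.557, adjusted p = 0.178). Without CD11cLO Sham replicate 1, at 44.3 CPM, the first of these was 2.83 (adjusted p = 0.000167). In RAS kidneys Slc40a1 was at 57.4, 60.3 and 56.2 CPM in KRM and at 29.9, 10.5, 2.37 and 4.37 CPM in CD11cHI macrophages. It was at 27.1, 38.0, 45.1 and 69.5 CPM in CD11cLO macrophages, within which the KRM range fell. KRM RAS were apart from CD11cHI RAS by 2.35 (SE 0.733, adjusted p = 0.0781), which became 3.44 (adjusted p = 0.0105) without CD11cHI RAS replicate 1.

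Slc11a1 (chr1:74375195-74386062, plus strand), the metal transporter of the phagosome, was at 721, 699, 603 and 622 CPM in KRM Sham. CD11cHI Sham libraries were at 364, 458 and 114 CPM, the lowest being the one with the most tubule markers, and CD11cLO Sham libraries at 370, 340 and 344 CPM. KRM lay above both. The log2 fold change was 0.89 against CD11cLO macrophages (SE 0.119, adjusted p = 0.000620; 0.130 in 1 fit over all 6 groups) and 1.06 against CD11cHI macrophages (SE 0.414, adjusted p = 0.177). Without CD11cHI Sham replicate 3 the latter was 0.68 (adjusted p = 0.0218). In RAS kidneys Slc11a1 was at 489, 266 and 317 CPM in KRM, at 347, 170, 122 and 98.0 CPM in CD11cHI macrophages and at 310, 432, 597 and 486 CPM in CD11cLO macrophages. KRM no longer held the highest levels, and their range overlapped both other populations. CD11cHI and CD11cLO macrophages of RAS kidneys differed by -1.31 (SE 0.401, adjusted p = 0.0744).

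Trf (chr9:103204001-103230444, minus strand), the iron carrier, was at 1549, 1558, 1357 and 1432 CPM in KRM Sham, at 814, 1067 and 487 CPM in CD11cHI Sham and at 736, 569 and 880 CPM in CD11cLO Sham. KRM lay above both groups. They were higher than CD11cLO macrophages by 1.00 on the log2 scale (SE 0.158, adjusted p = 0.00149; 0.0659 in 1 fit over all 6 groups), and the difference from CD11cHI macrophages was 0.86 (SE 0.272, adjusted p = 0.116). Without CD11cHI Sham replicate 3 that difference was 0.64 (adjusted p = 0.0276). In RAS kidneys Trf ranged from 871 to 1238 CPM in KRM, from 844 to 1979 CPM in CD11cHI macrophages and from 759 to 2265 CPM in CD11cLO macrophages, and the 3 groups overlapped. Trf shares its locus with the annotated gene Gm20425 on the same strand, so its counts are uncertain.

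Tfrc (chr16:32608920-32632794, plus strand), which binds transferrin for uptake, was lowest in the Sham population where its ligand was highest. It was at 6.98, 6.57, 8.83 and 9.42 CPM in KRM Sham. It was at 12.4, 17.5 and 35.7 CPM in CD11cHI Sham and at 15.7, 14.2 and 48.7 CPM in CD11cLO Sham. KRM lay below both, and the top library of each other group was the one high in tubule markers. The log2 fold change of KRM was -1.72 against CD11cLO macrophages (SE 0.420, adjusted p = 0.0119) and -1.53 against CD11cHI macrophages (SE 0.396, adjusted p = 0.0733). Without the libraries over 4000 CPM of tubule markers, a limit set after the data were seen, these were -0.95 (adjusted p = 0.0103) and -0.92 (adjusted p = 0.0505). In RAS kidneys Tfrc was at 8.75, 27.3 and 19.7 CPM in KRM, at 21.5, 19.2, 27.0 and 21.5 CPM in CD11cHI macrophages and at 15.6, 27.0, 22.7 and 26.1 CPM in CD11cLO macrophages. KRM RAS replicate 1 lay within the KRM Sham range, replicate 3 among the other populations and replicate 2 just above all of their RAS libraries.

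Fth1 (chr19:9980598-9985098, plus strand), the iron store, was at 6926, 5458, 5004 and 5390 CPM in KRM Sham and at 4358, 4238 and 6055 CPM in CD11cHI Sham. It was at 3084, 2945 and 5258 CPM in CD11cLO Sham. The highest library of each of the CD11c groups was again the one with tubule markers, and it alone reached the KRM range. KRM differed from CD11cLO macrophages by 0.59 (SE 0.226, adjusted p = 0.0700), and by 0.88 (adjusted p = 0.00258) without CD11cLO Sham replicate 3. In RAS kidneys Fth1 ranged from 4794 to 5463 CPM in KRM, from 3889 to 8442 CPM in CD11cHI macrophages and from 2627 to 7768 CPM in CD11cLO macrophages. The KRM range lay inside both of the others. Ferritin has many processed copies in the genome, and reads may have been split between copies. The estimated counts of Fth1 were not whole in 18 libraries, but this also held for Trf in 18, Slc11a1 in 10 and Hmox1 in 3.

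In RAS kidneys 0 of the 8 members passed by edgeR between KRM and CD11cHI macrophages, beside 9.23% of 13226 genes, with 2 at an unadjusted p below 0.05 (29.8% of all genes) and 1 called by DESeq2 (20.8% of all genes). Without CD11cHI RAS replicate 1, 4 passed, beside 17.6% of all genes. Between CD11cHI and CD11cLO macrophages 0 passed by edgeR, beside 8.27% of 12305 genes, with 3 at an unadjusted p below 0.05 (25.8% of all genes) and 3 called by DESeq2 (16.7% of all genes). Those 3 were Hmox1, Slc40a1 and Slc11a1, all lower in CD11cHI macrophages, and edgeR called the same 3 without CD11cHI RAS replicate 1, beside 17.3% of all genes. The sum of 7 dendritic cell markers was 1253, 1868, 4274 and 4628 CPM in CD11cHI RAS replicates 1, 2, 3 and 4, against 138 to 421 CPM in CD11cLO RAS and 213 to 279 CPM in KRM RAS. Replicate 1 was thus the lowest of its group in this sum, and the part of these markers in the differences was not tested.

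The effect of stenosis was tested within each population. In KRM, the estimates of Epor, Slc40a1, Trf and Slc11a1 were below 0 and that of Tfrc above 0, and none passed adjustment by edgeR with TMM factors and all 7 libraries. By edgeR 0 of the 8 passed, beside 9.70% of 12852 genes, while 5 had an unadjusted p below 0.05, beside 34.0%, and DESeq2 called 5, beside 24.6%. The groups did not overlap for 4 members, Epor, Slc40a1, Trf and Slc11a1, beside 27.6% of all genes. The log2 fold change of Epor was -1.32 (SE 0.350, adjusted p = 0.0526), of Slc11a1 -0.79 (SE 0.212, adjusted p = 0.0551), of Tfrc 1.33 (SE 0.373, adjusted p = 0.0596), of Slc40a1 -0.42 (SE 0.149, adjusted p = 0.0970) and of Trf -0.39 (SE 0.153, adjusted p = 0.123). With size factors by median of ratios Epor (adjusted p = 0.0489) and Slc11a1 (adjusted p = 0.0490) passed, beside 10.2% of all genes. Fth1 (-0.04, adjusted p = 0.872), Hmox1 (-0.12, adjusted p = 0.540) and Cd163 (0.38, adjusted p = 0.340) overlapped between RAS and Sham.

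Which KRM RAS libraries entered decided these values. Without replicate 1, whose columns differed between the tables, Epor was -1.87 (adjusted p = 0.000788), Slc11a1 -1.11 (adjusted p = 0.000605), Tfrc 1.63 (adjusted p = 0.00103) and Trf -0.56 (adjusted p = 0.00924), and all 4 passed, beside 50.2% of all genes. The remaining RAS libraries were then the 2 with 6565 and 4864 CPM of tubule markers, which were also the closest pair of their group (mean chi-square of 10.1 per gene). Without those 2, replicate 1 alone against Sham gave -0.68 for Epor (adjusted p = 0.557), -0.39 for Slc11a1 (adjusted p = 0.497) and 0.18 for Tfrc (adjusted p = 0.933), with the lone library assumed to vary like the Sham group. Other marker sums also differed between KRM RAS and KRM Sham. The erythroid sum was 101 to 208 CPM in Sham, below the 392 to 853 CPM of RAS. Of this sum Slc4a1, which kidney intercalated cells also express, was at 1.79, 123 and 109 CPM in RAS replicates 1, 2 and 3 and at 0 in KRM Sham, while Hba-a2 was at 525, 202 and 176 CPM against 59.9 to 130 CPM. The sum of 4 B cell markers was 84.7 to 122 CPM in Sham, above the 30.8 to 75.3 CPM of RAS. The macrophage sum was 15271, 9325 and 10626 CPM in RAS replicates 1, 2 and 3 against 16949.6 to 20116 CPM in Sham, and the sum of 12 dissociation stress genes was 24555 to 28715 CPM against 32554 to 45824 CPM. Members of the stress list moved in both directions: Hspa1b was at 6891, 2453 and 3096 CPM in RAS against 10107 to 12862 CPM in Sham, and Nr4a1 at 205, 888 and 861 CPM against 103 to 128 CPM. The sum of 6 T and NK cell markers was 387, 48.3 and 39.7 CPM in RAS against 2.29 to 3.03 CPM in Sham. The sum of 8 endothelial markers was 16.7 CPM in replicate 1, within the Sham range of 9.96 to 23.7 CPM, and 244 and 203 CPM in the other 2. The part of these markers and of the tubule markers in the differences was not tested.

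**Figure D3:**
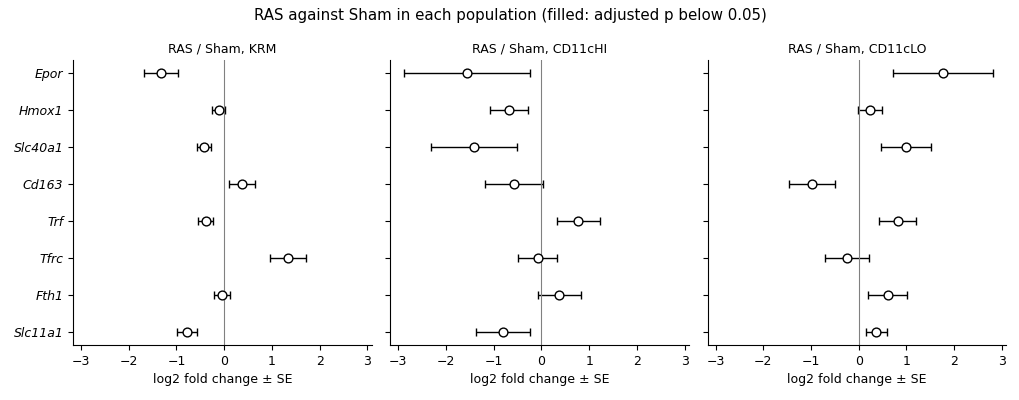
Log2 fold change with its SE (horizontal axis) of each member in RAS against Sham for KRM, CD11cHI and CD11cLO macrophages; filled points would have an adjusted p below 0.05, and none is filled. Epor is at -1.32 in KRM, -1.56 in CD11cHI and 1.77 in CD11cLO macrophages, with the widest errors in the latter 2; without 1 library each, these 2 become -4.12 and 0.31.

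**Figure D4:**
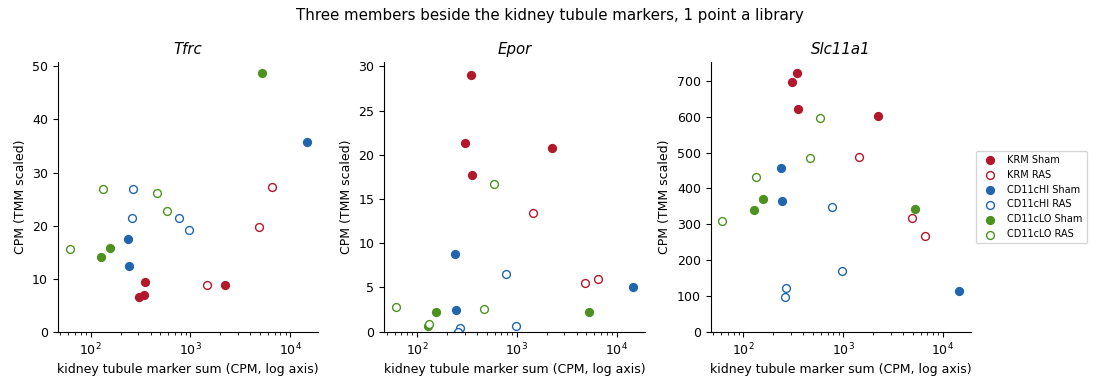
Level of Tfrc, Epor and Slc11a1 (CPM, linear axis) against the summed level of 12 kidney tubule markers (CPM, log axis), 1 point a library, coloured by population, filled Sham and open RAS. The 4 libraries above 4000 CPM of markers include the highest Tfrc libraries of CD11cHI Sham (35.7 CPM), CD11cLO Sham (48.7 CPM) and KRM RAS (27.3 CPM).

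In CD11cHI and in CD11cLO macrophages 0 of the 8 members passed by edgeR between RAS and Sham, as did 0% of the 12739 and 12301 genes tested. No member had an unadjusted p below 0.05 in either population, where 9.79% of all genes in CD11cHI and 8.96% in CD11cLO macrophages did, and DESeq2 called 0 of the 8, beside 1.48% and 0.870% of all genes. RAS and Sham overlapped for all 8 in both populations, while 6.85% and 8.41% of all genes did not overlap. The largest estimates in CD11cHI macrophages were -1.56 for Epor (SE 1.32, adjusted p = 0.673) and -1.42 for Slc40a1 (SE 0.909, adjusted p = 0.597). In CD11cLO macrophages they were 1.77 for Epor (SE 1.05, adjusted p = 0.621) and 0.99 for Slc40a1 (SE 0.529, adjusted p = 0.592). The Epor estimates rested on the 2 libraries that stood apart. Without CD11cHI RAS replicate 1 Epor was -4.12 in CD11cHI macrophages (adjusted p = 0.165), and without CD11cLO RAS replicate 3 it was 0.31 in CD11cLO macrophages (adjusted p = 0.937). With 1 library left out, Slc40a1 ranged from -2.49 (without CD11cHI RAS replicate 1) to -0.81 (without CD11cHI Sham replicate 2) in CD11cHI macrophages, and from 0.66 to 1.90 (without CD11cLO Sham replicate 1) in CD11cLO macrophages.

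Whether the response differed between populations was tested as an interaction. Of the 8 members 0 differed by edgeR between KRM and CD11cLO macrophages, beside 0.245% of 13877 genes, with 6 at an unadjusted p below 0.05 (23.7% of all genes) and 2 called by DESeq2 (10.2% of all genes). The 6 were Slc11a1 (-1.20, SE 0.328, adjusted p = 0.0858), Trf (-1.27, SE 0.443, adjusted p = 0.125), Epor (-3.15, SE 1.14, adjusted p = 0.132), Tfrc (1.45, SE 0.600, adjusted p = 0.171), Slc40a1 (-1.44, SE 0.619, adjusted p = 0.186) and Cd163 (1.27, SE 0.560, adjusted p = 0.194). Without CD11cLO RAS replicate 3 the Epor difference was -1.71 (adjusted p = 0.2), and without CD11cLO Sham replicate 1 that of Slc40a1 was -2.43 (adjusted p = 0.0747). Without KRM RAS replicate 1, Slc11a1 (-1.51, adjusted p = 0.00803) and Tfrc (1.77, adjusted p = 0.0455) passed, beside 16.1% of all genes. Between KRM and CD11cHI macrophages 0 of the 8 differed by edgeR, as did 0% of 14137 genes, with 2 at an unadjusted p below 0.05 (21.2% of all genes) and 0 called by DESeq2 (8.64% of all genes). Between CD11cHI and CD11cLO macrophages all 3 of these counts were 0, where edgeR called 0% of 13540 genes, 6.65% had an unadjusted p below 0.05 and DESeq2 called 0.111%.

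A list of 70 other genes of heme, iron and erythropoietin biology was followed in the same fits. Of these, 8 did not pass the filter over the 21 libraries, among them Epo, the hormone itself, with 1 count in all, Hamp (hepcidin), which closes ferroportin, with 3, and Tfr2, the second transferrin receptor, with 28. In KRM against CD11cLO macrophages of Sham kidneys 33 of the 59 tested genes passed, 7 higher and 26 lower, beside the 19.5% of all genes higher and 22.4% lower given above, and 31 passed with the replicate block. The median log2 fold change of the list was -0.38, against -0.04 for all genes. The highest were Slc22a17 (2.47, adjusted p = 0.000664), a receptor for lipocalin 2, Spic (1.80, adjusted p = 0.00680), a transcription factor of red pulp macrophages, and Slc11a2 (0.97, adjusted p = 0.00810), the importer of ferrous iron. The lowest were Hp (-7.12, adjusted p = 3.66e-05), which encodes haptoglobin, the ligand that Cd163 takes up, Lcn2 (-6.40, adjusted p = 0.00249), lipocalin 2, and Cish (-3.29, adjusted p = 0.000950), a target of Stat5 that restrains cytokine receptors. Hp was at 8.55, 5.61, 2.84 and 4.71 CPM in KRM Sham and at 1116, 727 and 308 CPM in CD11cLO Sham. Markers of other myeloid cells moved with these genes. The sum of 9 neutrophil markers was 99.9 to 114 CPM in KRM Sham and 2558, 1934 and 1023 CPM in CD11cLO Sham, in the same order of libraries as Hp. Of these, S100a8 was at 0.323 to 1.29 CPM in KRM Sham and 43.8 to 223 CPM in CD11cLO Sham, and Camp was at 0 in all 4 KRM Sham libraries and in 1 of the 3 CD11cLO Sham libraries. The monocyte sum was 13214, 10311 and 4195 CPM in CD11cLO Sham, and the part of either sum in the values of Hp and Lcn2 was not tested.

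The list holds 10 genes of erythropoietin signalling, among them both carriers and restrainers of the signal. Between KRM and CD11cLO macrophages in Sham 9 were tested, 6 of them lower in KRM, Jak2, Stat5a, Stat5b, Csf2rb, Cish and Lyn, and 1 higher, Inpp5d, a phosphatase that restrains it. Between KRM and CD11cHI macrophages in Sham 0 of the 9 passed by edgeR, beside 5.13% of all genes. Jak2, the kinase bound to the receptor, was at 33.5, 43.9, 43.0 and 59.6 CPM in KRM Sham. It was at 91.9, 90.3 and 106 CPM in CD11cLO Sham, above all KRM libraries. Csf2rb, a cytokine receptor chain, was at 130 to 134 CPM in KRM Sham and 307 to 510 CPM in CD11cLO Sham. In the same comparison, where 19.5% of all genes were higher and 22.4% lower, heme synthesis genes were 1 higher and 3 lower of 8 tested, heme uptake and breakdown genes 5 lower of 8, iron uptake genes 3 higher and 2 lower of 7, iron regulators 1 higher of 5, iron storage genes 1 lower of 4, mitochondrial iron genes 3 lower of 7, and the transcription factors 1 higher and 6 lower of 10.

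**Figure D5:**
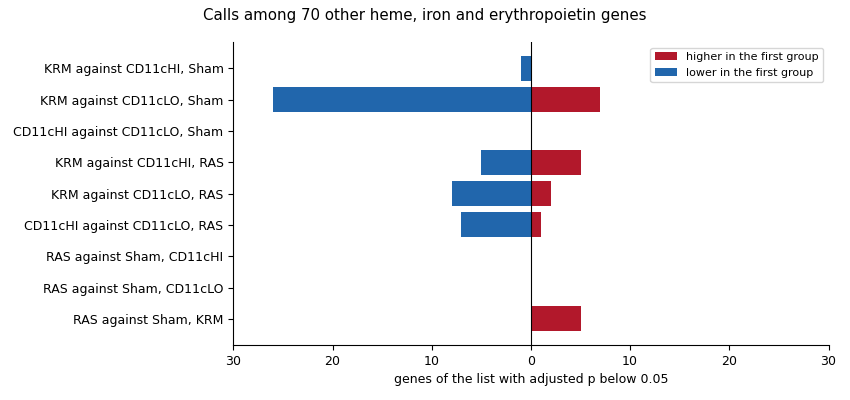
Number of the 70 other heme, iron and erythropoietin genes with an adjusted p below 0.05 by edgeR in each comparison, to the right for higher and to the left for lower in the first group named. KRM against CD11cLO macrophages in Sham has the most calls (7 higher, 26 lower, of 59 tested), and also the largest share of all genes called (19.5% higher, 22.4% lower). RAS against Sham has calls in KRM alone (5 higher of 60 tested, beside 7.77% of all genes higher), and in the other populations 0% of all genes were called.

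Between KRM and CD11cHI macrophages of Sham kidneys 1 of 59 genes of the list passed, Hp, which was lower, beside 5.13% of all genes called and 4.13% lower. With the replicate block the count was 0, beside 0.719% of all genes, and DESeq2, without the block, called 8, beside 14.6%. The count was 0 without CD11cHI Sham replicate 1 or any 1 KRM Sham library, 4 without CD11cHI Sham replicate 2 and 8 without CD11cHI Sham replicate 3, the library highest in tubule markers. Shares of all genes with a library left out are not given here, so such counts are no result about the list alone. Between CD11cHI and CD11cLO macrophages 0 of 60 passed by edgeR, beside 1.52% of all genes, with 9 at an unadjusted p below 0.05, beside 17.7%, and 5 called by DESeq2, beside 10%. The count was 3 with the block and 13 without the libraries high in tubule markers, settings for which the share of all genes is not given here. In RAS kidneys 10 of 61 passed between KRM and CD11cHI macrophages, 5 in each direction, beside 4.17% of all genes higher and 5.07% lower. This count was 0 with the replicate block, ranged from 0 to 15 with 1 library left out, and was 20 by DESeq2, beside 20.8% of all genes. Of the genes whose groups did not overlap, the largest changes were those of Slc22a17 (3.34, adjusted p = 0.0485), the zinc and iron importer Slc39a8 (2.39, adjusted p = 0.0471) and the heme exporter Abcg2 (1.41, adjusted p = 0.0422) among the higher, and Jak2 (-2.32, adjusted p = 0.0270), Csf2rb (-1.79, adjusted p = 0.0273) and Stat5a (-1.56, adjusted p = 0.0166) among the lower. Cp (2.77, adjusted p = 0.0421), the ferroxidase ceruloplasmin, was also higher, with groups that overlapped. Between KRM and CD11cLO macrophages 10 of 60 passed, beside 3.28% of all genes higher and 5.89% lower. DESeq2 called 21, beside 24.4% of all genes, while 7 passed with the block and 0 to 17 with 1 library left out. Of the 10, 2 were higher, Slc22a17 (2.01, adjusted p = 0.0392) and Alad (1.99, adjusted p = 0.0365), an enzyme of heme synthesis, and 8 were lower. Hp (-7.21, adjusted p = 0.0107), Csf2rb (-2.11, adjusted p = 0.0254) and Lrp1 (-2.10, adjusted p = 0.0274), which takes up heme bound to hemopexin, were the lowest. Between CD11cHI and CD11cLO macrophages 8 of 60 passed, beside 5.15% of all genes higher and 3.12% lower. DESeq2 called 16, beside 16.7% of all genes, and 0 to 13 passed with 1 library left out. Alad was higher (1.32, adjusted p = 0.0342) and 7 genes were lower, led by the iron reductase Steap4 (-4.41, adjusted p = 0.0215), Hp (-3.96, adjusted p = 0.0306) and Lcn2 (-3.09, adjusted p = 0.0140). In RAS kidneys the neutrophil sum was 75.5 to 143 CPM in KRM, 11.9 to 401 CPM in CD11cHI macrophages and 1937 to 3459 CPM in CD11cLO macrophages, and the monocyte sum was 653 to 1123 CPM, 576 to 2021 CPM and 2512 to 6975 CPM. Their part in these values was not tested.

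In KRM, 5 of 60 genes of the list were higher in RAS than in Sham and 0 lower by edgeR, beside 7.77% and 1.94% of all genes, while DESeq2 called 12 higher and 4 lower, beside 24.6% of all genes in both directions. Lcn2 was at 1.67, 139 and 99.9 CPM in RAS against 0.299 to 1.32 CPM in Sham (7.08, adjusted p = 0.0272). Cish was at 15.7, 79.4 and 74.2 CPM in RAS against 0.963 to 3.49 CPM in Sham (4.48, adjusted p = 0.0163). Cp was at 12.3, 107 and 97.7 CPM in RAS against 2.17 to 8.79 CPM in Sham (3.85, adjusted p = 0.0297). In all 3 genes the 2 libraries high in tubule markers were far above KRM RAS replicate 1, which still lay above the Sham range. The other 2 were Epas1 (3.904, adjusted p = 0.0414), a hypoxia-inducible factor, whose groups overlapped, and Alas1 (0.43, adjusted p = 0.0480), the first enzyme of heme synthesis. The count of 5 fell to 0 without KRM Sham replicate 1, 2 or 4 alone and without KRM RAS replicate 2 or 3 alone, and was 7 without KRM Sham replicate 3. Without both libraries high in tubule markers, which leaves 1 RAS library, it was also 0, and Cish was 2.58 (adjusted p = 0.129), Lcn2 1.34 (adjusted p = 0.783) and Cp 1.22 (adjusted p = 0.673). Without KRM RAS replicate 1, 19 genes of the list were higher and 10 lower, beside 50.2% of all genes called. In CD11cHI and CD11cLO macrophages 0 of 60 genes of the list passed by edgeR between RAS and Sham, with 9 and 5 at an unadjusted p below 0.05, beside 9.79% and 8.96% of all genes, and 1 and 2 called by DESeq2, beside 1.48% and 0.870%.

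Across the 21 libraries, among 8886 genes, the log2 CPM pattern most like that of Epor was that of B3galnt1 (Pearson r = 0.969), followed by Lgmn (0.961) and Lilra5 (0.957). For Slc11a1 it was that of Apobec1 (0.956) and Pfkfb4 (0.945), for Hmox1 that of Serpinb8 (0.931), Pf4 (0.891) and Tlr7 (0.878), and for Slc40a1 that of Tmem87b (0.914), Kctd6 (0.908) and Hnmt (0.899). Trf was most like Smurf1 (0.918), Marcks (0.893) and Ggta1 (0.892), and Cd163 like Ap2a2 (0.877), Xdh (0.861) and F13a1 (0.845). Tfrc was most like Slc9a3r2 (0.877), Larp1b (0.865) and Sod2 (0.862), and Fth1 like Gnl3 (0.872), Ncl (0.838) and Sbds (0.831). Within the 8 members Epor and Slc40a1 (0.818), Epor and Slc11a1 (0.747) and Slc40a1 and Slc11a1 (0.740) had the highest correlations, and Tfrc and Slc11a1 (-0.585) the lowest. These values describe 21 libraries of 6 groups that share populations and depth, and the differences between populations enter them.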

How the data were processed

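The authors deposited estimated counts per gene from paired-end reads, aligned to mm10 with the OSA aligner and annotated with Ensembl, and a second table described as TPM whose values are on a log2 scale after quantile normalization; the latter served only to compare columns. Lines with the same gene name were summed and counts rounded. Groups were taken from the labels. Each comparison was fitted on the libraries of its groups with edgeR 4.0.16 (R 4.3.3): TMM factors, filterByExpr (minimum count 10, total 15) and the two-sided quasi-likelihood F test, with Benjamini-Hochberg adjustment over all genes tested. SE is the absolute log2 fold change divided by the square root of F. Alternatives were median of ratios or total library size, no filter, 1 fit over all 6 groups, the replicate block, DESeq2 1.42.0 and each library left out. Leaving out the libraries over 4000 CPM of tubule markers was added after seeing the data.

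Members and lists were chosen with earlier results of these data known. Named list genes were, in each comparison, those with an adjusted p below 0.05 and groups without overlap, at most 3 in each direction by size of change; Hp in KRM against CD11cHI macrophages of Sham, Hamp, Epo, Tfr2, Cp in KRM against CD11cHI macrophages of RAS, Epas1, and the erythropoietin signalling genes in Sham were named after their values were seen. Most similar genes were the 3 with the highest correlation at an average log2 CPM (prior count 2) of at least 3; for Slc11a1, 1 of the 3 is not reported here. Same-numbered libraries correlated in their deviations from group means, over 8893 genes, by 0.167 to 0.639 between Sham populations and by 0.109 to 0.406 between KRM and the other RAS populations, which was taken as a pairing. The labels do not state this pairing. Between RAS and Sham in CD11cLO macrophages the values were 0.136 to 0.380, but those libraries come from mice of different surgery and share only a number. The numbers did not pair CD11cHI with CD11cLO macrophages in RAS (-0.0710 in 1 pair), nor RAS with Sham in KRM or CD11cHI macrophages (lowest -0.232 and -0.418). Each replicate pair differed by more than counting error. The methods were tested on simulated data. Promoters and proteins were not used here.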

Additional observations from a re-analysis of the deposited data

Results flagged for a closer look

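In groups of 4 libraries, a library was marked when its gap to the nearest other exceeded the share of the group's range that Dixon's test sets for 4 values. Of 24 such groups of values 4 were marked, where chance marks about 1 in 20. Epor was at 6.47 CPM in CD11cHI RAS replicate 1, against 0 to 0.635 CPM in the rest. Epor was at 16.7 CPM in CD11cLO RAS replicate 3, against 0.836 to 2.78 CPM, and Hmox1 at 333 CPM in the same library, against 202 to 223 CPM. Cd163 was at 3.49 CPM in CD11cHI RAS replicate 2, against 23.8 to 27.7 CPM. Spic, named here after its values were seen, was at 51.6 CPM in CD11cLO RAS replicate 3, against 6.56 to 13.4 CPM in its group. The cause was not tested.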

How the results depend on the processing

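Epor was at 3 and 0 counts in CD11cHI RAS replicates 3 and 4, libraries with totals of 10120507 and 9730616 counts. With the replicate number as a block, members called between KRM and CD11cHI macrophages in Sham went from 2 to 0, and the pairing changed no other call of a member. Other settings gave, for members between KRM and CD11cHI macrophages in Sham, a count of 1 with total library size, no filter or 1 fit over all 6 groups, and 4 with DESeq2 or without the libraries high in tubule markers. Between KRM and CD11cLO macrophages in Sham the count was 3 in 1 fit over all 6 groups, and between CD11cHI and CD11cLO macrophages 1 with DESeq2 or without the libraries high in tubule markers. In RAS, KRM against CD11cHI macrophages had 1 in 1 fit over all 6 groups and with DESeq2, KRM against CD11cLO macrophages 2 with DESeq2 and 0 without the libraries high in tubule markers (1 KRM RAS library left), and CD11cHI against CD11cLO macrophages 1 with no filter, 2 in 1 fit over all 6 groups and 3 with DESeq2. RAS against Sham in KRM had 2 with median of ratios size factors and 5 with DESeq2, and the difference in response between KRM and CD11cLO macrophages 2 with DESeq2. In KRM, where RAS and Sham libraries share only a number, genes of the iron and heme list called between RAS and Sham went from 5 to 1 with the block. With 1 library left out, members called ranged from 1 to 4 for KRM against CD11cHI macrophages and from 5 to 7 against CD11cLO macrophages in Sham, from 0 to 4 and from 0 to 1 in RAS, from 0 to 3 for CD11cHI against CD11cLO macrophages in RAS, from 0 to 4 for RAS in KRM and from 0 to 2 for the difference in response between KRM and CD11cLO macrophages. The share of all genes called moved with the setting too, for RAS in KRM from 9.70% to 50.2% without KRM RAS replicate 1. The counts in this section are therefore no result about the members alone.

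Of 1504 other values, for 96 fold changes, 67 had the opposite sign, none of them in a called fold change, and the cause was not tested. Without the libraries high in tubule markers, Tfrc was 0.001 and Slc11a1 0.21 in CD11cHI against CD11cLO macrophages in Sham, Slc11a1 0.13 in KRM against CD11cLO macrophages in RAS, and Tfrc 0.53 and 0.62 for RAS in CD11cHI and CD11cLO macrophages. In the differences in response, the same setting gave -0.35 for Tfrc and 0.80 for Slc11a1 (KRM minus CD11cHI), -0.48 for Tfrc (KRM minus CD11cLO), and -0.15 for Cd163, -0.39 for Trf and -0.039 for Tfrc (CD11cHI minus CD11cLO). With total library size Tfrc was 0.046 in KRM against CD11cHI and Fth1 0.10 in KRM against CD11cLO macrophages in RAS, Fth1 0.04 for RAS in KRM, Slc11a1 0.11 in the KRM minus CD11cHI response, and Trf -0.056 in the CD11cHI minus CD11cLO response. That Trf difference was -0.03 with median of ratios or DESeq2 and -0.005 with no filter. Fth1 in KRM against CD11cLO macrophages in RAS was 0.13 with the replicate block. Tfrc for RAS in CD11cHI macrophages was 0.001 with no filter, 0.029 in 1 fit over all 6 groups and 0.093 with the block. With 1 library left out, the following changed sign. In Sham, CD11cHI against CD11cLO macrophages, Slc40a1 ranged from -0.071 to 1.44, Trf from -0.083 to 0.36, Tfrc from -0.81 to 0.68 and Slc11a1 from -0.50 to 0.22. In RAS, Tfrc ranged from -0.58 to 0.12 in KRM against CD11cHI macrophages, and in KRM against CD11cLO macrophages Trf from -0.45 to 0.17, Tfrc from -0.63 to 0.071 and Fth1 from -0.39 to 0.053. In CD11cHI against CD11cLO macrophages in RAS, Trf ranged from -0.057 to 0.54, Tfrc from -0.18 to 0.05 and Fth1 from -0.025 to 0.41. For RAS against Sham, Tfrc ranged from -0.36 to 0.53 in CD11cHI and from -0.54 to 0.62 in CD11cLO macrophages, and Fth1 from -0.12 to 0.068 in KRM. In the KRM minus CD11cHI response Epor ranged from -0.37 to 2.77 and Slc11a1 from -0.40 to 0.51, and in the CD11cHI minus CD11cLO response Trf from -0.30 to 0.32, Tfrc from -0.60 to 0.71 and Fth1 from -0.49 to 0.019.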
